A study of Mus musculus and Homo sapiens with 15 samples.

Results

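Zic5, Pou5f1, Kcnf1, Gabra4, Kremen2 and Klhl14 are 6 genes that were high in thymus lymphomas of mice given water and low in those of arsenic-treated mice. They were looked up by symbol among the 52340 genes of the table for the tumour mice and the 56691 genes of the table for grafted tumours. All 6 were found in both tables. They were chosen on their values in the tumour mice, namely high counts in water tumours against low counts in regressing or progressing tumours. Those values are therefore given as a description, with no test. The label "ectopic" is not used below, because bulk RNA does not say which cells made a transcript and Klhl14 is a known gene of B lymphocytes.

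The series holds 15 RNA sequencing samples in 3 systems. W/W mice carry the p53 R282W mutation on both copies of the gene, and their thymus T-lymphomas were sampled on day 150 after birth. The 3 groups of W/W tumours came from mice given water (n = 3), from mice treated with arsenic trioxide (ATO) whose tumours progressed (n = 3) and from ATO-treated mice whose tumours regressed (n = 3). Grafted tumours in C57 mice, labelled as a CDX model with the genotype WT, make up a control group on phosphate-buffered saline (PBS, 2 samples) and a group on ATO (2 samples). The human myeloid leukaemia line U937, made to express p53 R282W, was sequenced once after PBS and once after ATO. All W/W groups share the mutation, and the ATO groups are split by outcome, so treatment and outcome cannot be told apart in a comparison with water. The labels do not say whether the WT genotype of the grafts describes the host or the tumour cells. They do not give a dose, a duration or a batch, and they do not say that the graft replicates came from separate animals. P-values therefore measure the spread between these samples.

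As background, the 6 genes are best known outside mature T cells. Zic5 encodes a zinc finger transcription factor of the ZIC family, which acts in the neural plate and neural crest. Pou5f1 encodes OCT4, a core transcription factor of pluripotent cells and the germ line that works with NANOG and SOX2. Kcnf1 encodes a potassium channel subunit that forms no channel alone and modifies other channel subunits. Gabra4 encodes the alpha-4 subunit of the GABA-A receptor, a chloride channel of neurons that opens on binding the transmitter GABA. Kremen2 and its relative Kremen1 encode membrane receptors for Dickkopf proteins, which dampen Wnt signalling by acting on the co-receptors LRP5 and LRP6. Klhl14 encodes a BTB-Kelch protein of the kind that brings substrates to the CUL3 ubiquitin ligase, and it is expressed in B lymphocytes.

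In the tumour mouse table, whose coordinates are those of GRCm38, the genes whose promoters are described lie as follows. Zic5 spans chr14:122456795-122465677 on the minus strand and Kcnf1 spans chr12:17172100-17176888 on the minus strand. Gabra4 lies at chr5:71569749-71658308 on the minus strand. Pou5f1 lies at chr17:35506018-35510772 on the plus strand and Kremen2 at chr17:23741197-23745833 on the minus strand. All 6 genes are annotated as protein-coding.

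RefSeq start sites on GRCm38.p6 were given for 5 of the 6 genes, with Klhl14 the gene not matched. Zic5, Pou5f1, Kcnf1 and Gabra4 had their lowest group mean in regressing tumours. To set their promoters side by side, the stretches upstream of 4 of the RefSeq start sites are shown. Each runs 5′ to 3′ in the direction of the gene, stops before the first annotated exon base, and has in capitals the matches to the searched motifs.
Zic5, chr14:122465678-122465908, minus strand: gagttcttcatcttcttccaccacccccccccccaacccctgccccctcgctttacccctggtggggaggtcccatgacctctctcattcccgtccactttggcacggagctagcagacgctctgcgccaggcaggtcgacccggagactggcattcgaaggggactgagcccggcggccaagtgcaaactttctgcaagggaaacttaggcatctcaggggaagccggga
Pou5f1, chr17:35505782-35506017, plus strand: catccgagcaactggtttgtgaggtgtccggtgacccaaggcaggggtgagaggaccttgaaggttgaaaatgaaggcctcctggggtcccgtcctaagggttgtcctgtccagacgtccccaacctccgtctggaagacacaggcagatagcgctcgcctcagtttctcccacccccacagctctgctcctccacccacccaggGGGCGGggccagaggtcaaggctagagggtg
Kcnf1, chr12:17176889-17177138, minus strand: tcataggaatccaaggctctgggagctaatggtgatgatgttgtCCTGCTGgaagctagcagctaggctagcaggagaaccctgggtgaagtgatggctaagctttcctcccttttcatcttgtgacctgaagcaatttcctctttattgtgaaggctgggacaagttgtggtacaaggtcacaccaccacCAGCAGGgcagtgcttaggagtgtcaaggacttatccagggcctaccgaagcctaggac
Gabra4, chr5:71658364-71658558, minus strand: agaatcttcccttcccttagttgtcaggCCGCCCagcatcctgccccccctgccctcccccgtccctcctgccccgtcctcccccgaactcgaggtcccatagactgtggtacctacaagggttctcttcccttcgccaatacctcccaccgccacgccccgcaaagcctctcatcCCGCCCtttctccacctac
Over the 250 bases upstream, Kcnf1 held 1 CpG dinucleotide, an observed to expected ratio of 0.0618 that was above 8.96% of the 32851 mouse windows. The ratios of Zic5 (0.458), Gabra4 (0.653) and Pou5f1 (0.334 at the start site shown and 0.467 at a second one) lay between the percentiles 46.1 and 69.9, with a median of 0.373 over all windows. Kremen2 had a ratio of 0.416, and 220 of its 250 upstream bases lay in annotated exons, so it is not printed. The promoters therefore differ in base composition, from the CpG-poor Kcnf1 to the CpG-containing others.

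Motifs were searched on both strands. The GC box GGGCGG, which is bound by factors of the SP family, had 2 matches in Gabra4, 1 in Pou5f1 and 2 in Kremen2, and it occurred in 32.7% of all windows. The ZIC-type motif CAGCAGG had 2 matches in Kcnf1 and occurred in 8.44% of windows. The octamer ATGCAAAT (1.6% of windows), the TATA box TATAAA (12.4%), the E-box CACGTG (6.02%) and the cAMP element TGACGTCA (1.55%) had no match in any of the windows of the 5 genes. No searched motif was found in Zic5, and no motif was present in all 5 genes.

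Total counts per library were 12800367 to 17550594 in W/W mice, 12922147 to 15637644 in grafts and 16454534 to 17872972 in U937, and levels are given as CPM, the counts of a gene relative to the library's total after TMM scaling within a table. T cell genes were present in all 9 W/W libraries: Cd3e, a subunit of the T cell receptor complex, ranged from 108 to 328 CPM. The libraries differed in content beyond the groups. Summed over 8 adipocyte markers, regressing replicate 3 reached 5670 CPM, against 95.3 to 1440 CPM in the other 8 libraries. Trp53 was 231 to 319 CPM in water, 49.9 to 153 in progressing and 99.3 to 137 in regressing tumours. In such tissue, fewer cells of a type and less RNA per cell cannot be told apart.

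**Figure D1:**
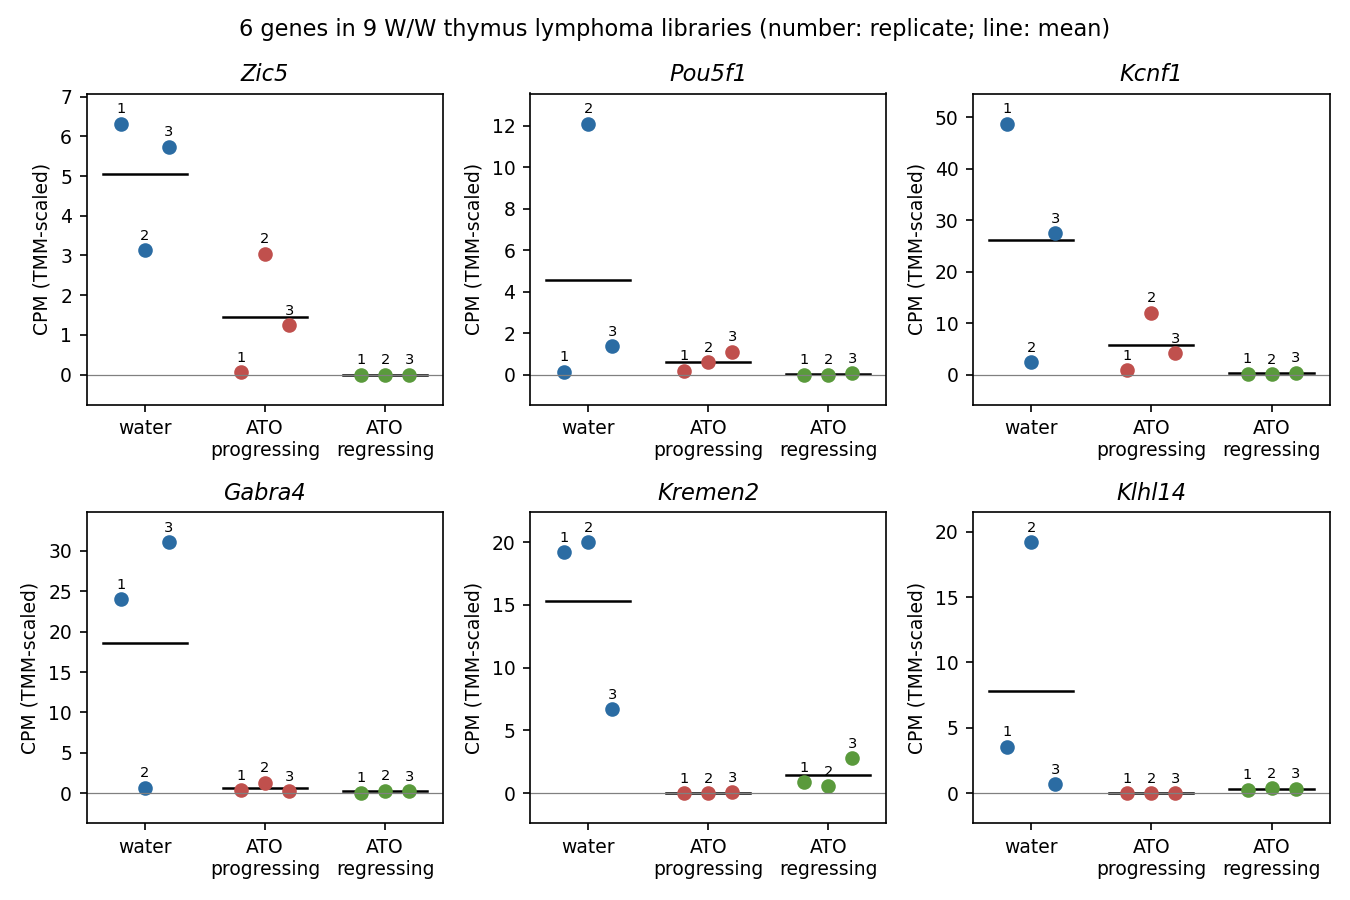
CPM (vertical axes, a scale for each gene) of the 6 genes in the 9 W/W libraries by group. Points are libraries, numbers are replicates and lines are group means. Each gene has its highest library among the water tumours, but not always the same library: Pou5f1 and Klhl14 peak in water replicate 2 (12.1 and 19.2 CPM), where Gabra4 and Kcnf1 are low (0.687 and 2.44 CPM).

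Zic5, the neural plate factor, was counted 98, 41 and 93 times in the water tumours, which is 6.32, 3.13 and 5.74 CPM. In progressing tumours it had 1, 36 and 17 counts (0.0617, 3.04 and 1.25 CPM), and in regressing tumours it had 0 counts in all 3 libraries. Progressing replicate 2 lay just under water replicate 2 on this scale. As CPM of the plain library total their order was the opposite, at 2.41 and 2.34, so the water and progressing groups were not clearly apart. With a floor of 3 counts per library, regressing tumours were at least 25.6-fold lower than the water mean of 5.06 ± 1.70 CPM (SD, n = 3). In progressing against water tumours the fitted log2 fold change of Zic5 was -1.81 ± 1.055 (SE). Over the fits without 1 library it ran from -2.90, without progressing replicate 2, to -1.235.

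Kcnf1, the modifying potassium channel subunit, had 756, 32 and 445 counts in water tumours (48.8, 2.44 and 27.5 CPM). Progressing tumours had 13, 142 and 57 counts (0.802, 12 and 4.19 CPM), and regressing tumours had 3, 1 and 6 (0.186, 0.0706 and 0.396 CPM). Water replicate 2 was thus lower than progressing replicates 2 and 3, and the groups overlapped. All regressing libraries were below all others. The log2 fold changes against water were -6.85 ± 1.37 in regressing and -2.21 ± 1.07 in progressing tumours (SE). The former was -6.04 without water replicate 1 and -7.48 without regressing replicate 3, and the latter was -1.41 without water replicate 1 and -3.35 without progressing replicate 2.

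Gabra4, the neuronal receptor subunit, was strongly counted in 2 of the 3 water tumours, with 372 and 503 counts in replicates 1 and 3 (24.0 and 31.1 CPM), and weakly in replicate 2, with 9 counts (0.687 CPM). It had 6, 15 and 3 counts in progressing tumours (0.37, 1.27 and 0.221 CPM) and 1, 4 and 4 in regressing tumours (0.0619, 0.282 and 0.264 CPM). Progressing replicate 2 exceeded water replicate 2. The water libraries thus spanned a 45.2-fold range, wider than that of Zic5 (2.02-fold) or Kremen2 (3.0-fold). Fitted log2 fold changes against water were -6.47 ± 1.36 in regressing and -4.91 ± 1.24 in progressing tumours (SE). Over the fits without 1 library the former ran from -6.96 to -5.89 and the latter from -5.87 to -4.33. The former was weakest without water replicate 3, and the latter was strongest without progressing replicate 2.

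Pou5f1, the pluripotency factor, rested on 1 library. It had 2, 159 and 22 counts in the water tumours (0.129, 12.1 and 1.36 CPM), so that water replicate 2 held 86.9% of the group's counts. Progressing tumours had 3, 7 and 15 counts (0.185, 0.592 and 1.1 CPM) and overlapped with water. Regressing tumours had 0, 0 and 1. With a floor of 3 counts per library, regressing tumours were at least 22.9-fold lower than the water mean of 4.54 ± 6.61 CPM (SD, n = 3). Without water replicate 2 that mean was 0.745 CPM and the bound 3.76-fold. The log2 fold change in progressing tumours was -2.85 ± 1.33 (SE), and it was -0.22 without water replicate 2, -3.43 without water replicate 1 and -3.54 without progressing replicate 3.

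Kremen2, the Dickkopf receptor, was high in all water tumours, with 297, 262 and 108 counts (19.2, 20 and 6.67 CPM). It had 0, 0 and 1 counts in progressing tumours and 14, 8 and 42 in regressing tumours (0.866, 0.565 and 2.77 CPM). The 3 groups did not overlap. With a floor of 3 counts per library, progressing tumours were at least 69.5-fold lower than the water mean of 15.3 ± 7.47 CPM (SD, n = 3), and the log2 fold change in regressing tumours was -3.44 ± 0.84 (SE). Over the fits without 1 library the latter ran from -4.29, without regressing replicate 3, to -3.06.

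Klhl14, the B lymphocyte Kelch protein, had 55, 252 and 11 counts in water tumours (3.55, 19.2 and 0.679 CPM). No count was found in the 3 progressing tumours, and regressing tumours had 4, 5 and 5 (0.247, 0.353 and 0.33 CPM). The groups did not overlap, although water replicate 3 was close to the regressing libraries. With a floor of 3 counts per library, progressing tumours were at least 35.5-fold lower than the water mean of 7.82 ± 9.99 CPM (SD, n = 3). Without water replicate 2, which held 79.2% of the group's counts, that mean was 2.11 CPM and the bound 9.61-fold. The log2 fold change in regressing tumours was -4.62 ± 1.225 (SE), and without water replicate 2 it was -2.68.

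The 6 genes thus had different orders of the groups. By group mean, Zic5, Kcnf1, Gabra4 and Pou5f1 were lowest in regressing tumours, and Kremen2 and Klhl14 were lowest in progressing tumours. For Gabra4 the 2 ATO groups overlapped near the floor of 3 counts. Its level in progressing replicate 3 (0.221 CPM) was below that in regressing replicates 2 and 3 (0.282 and 0.264 CPM). In all 6 genes the 3 water libraries lay above the 3 regressing libraries, which held for 20.9% of the 18119 genes tested. In Zic5, Kremen2 and Klhl14 they also lay above the 3 progressing libraries, which held for 14.7%. For Zic5 the latter held after TMM scaling but not as CPM of the plain total. For Pou5f1 the former rested on 2 counts in water replicate 1 against 1 in regressing replicate 3, both under the floor of 3 counts. How many of the 6 genes met either rule follows from how the genes were chosen. With more than 3 counts taken as detected, 5 to 6 of the 6 genes were detected in a water library, 2 to 4 in a progressing and 2 to 4 in a regressing library.

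On the authors' FPKM scale, which divides by gene length, the mean levels in water tumours were, in order, 6.54 ± 2.98 for Kremen2, 5.72 ± 5.11 for Kcnf1, 3.24 ± 2.83 for Gabra4, 1.55 ± 2.09 for Pou5f1, 1.39 ± 1.58 for Klhl14 and 1.03 ± 0.486 for Zic5 (SD, n = 3). Neighbours in this order did not differ beyond their spread. In progressing tumours Kcnf1 led with 1.02 ± 0.906 FPKM, and in regressing tumours Kremen2 led with 0.707 ± 0.573 FPKM (SD, n = 3).

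The ZIC family has 5 members, of which Zic5 alone had enough counts to be tested. Zic2, the neighbour of Zic5 on chromosome 14, had 6, 3 and 10 counts in water tumours and 1, 65 and 5 in progressing tumours, and it had 0 counts in regressing tumours. Its highest library, progressing replicate 2 at 5.49 CPM, was also the progressing library with the most Zic5. Zic1 had at most 5 counts and Zic4 at most 1.

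Around Pou5f1, a list of 25 other genes of the pluripotency network was written, and 11 of them had enough counts to be tested. In regressing against water tumours, edgeR's quasi-likelihood test called none at an adjusted p under 0.05, with 1 at an unadjusted p under 0.05 and 0 called by DESeq2. Of all genes tested, 7.70% were called in that comparison, 4.57% lower and 3.13% higher. Of the partners of Pou5f1, Nanog reached at most 0.247 CPM. Sox2 had 0, 15 and 13 counts in water tumours. Replicate 2, where Pou5f1 was highest, was therefore not clearly above replicate 3 in Sox2 (1.15 and 0.803 CPM). Lin28a, another gene of the list, reached at most 0.864 CPM. In progressing against water tumours 2 of the 11 fell (7.13% of all genes were called lower), with an edgeR adjusted p of 0.0358 for Utf1 and 0.0194 for Klf2. Utf1, a chromatin factor of embryonic stem cells, was 1.61, 4.73 and 7.78 CPM in water and 0, 0.507 and 0.0735 CPM in progressing tumours, but it no longer passed when water replicate 3 or progressing replicate 1 or 3 was left out (adjusted p = 0.087, 0.0714 and 0.118). Klf2, which is also a quiescence and homing factor of T cells, was 50.3, 138 and 47.4 CPM in water and 2.28, 16.4 and 5.0 CPM in progressing tumours, and its call was lost only without progressing replicate 3 (adjusted p = 0.0768). The median log2 fold changes of the 11 genes were -1.61 in regressing and -2.22 in progressing tumours, against -0.115 and -0.0378 over all genes.

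Of 13 other potassium channel genes related to Kcnf1 or known from lymphocytes, 4 were tested and none was called by edgeR in the 3 W/W comparisons. At an unadjusted p under 0.05 there were 3 in regressing against water, 1 in progressing against water and 1 in regressing against progressing, and DESeq2 called the same numbers. Kcns3, another modifying subunit, was 59.4, 1.37 and 16.1 CPM in the water tumours, high in the replicates in which Kcnf1 was high. Kcnn4, the calcium-gated channel of lymphocytes, was 49.9, 73.4 and 13.2 CPM in water and 162, 159 and 104 CPM in regressing tumours.

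Of 18 other GABA receptor subunits, 7 were tested and 1, Gabrr2, was called lower in both comparisons with water, in which 4.57% (regressing) and 7.13% (progressing) of all genes were called lower. Gabrr2 encodes a rho subunit, which forms receptors without alpha subunits. It was 11.1, 6.57 and 24.9 CPM in water, 1.36, 0.423 and 1.47 CPM in progressing and 1.48, 1.41 and 1.71 CPM in regressing tumours. It fell in progressing tumours by 3.69 ± 0.72 log2 units (SE, edgeR adjusted p = 0.0115), and the call held without any 1 library. In regressing tumours it fell by 3.20 ± 0.70 (SE, edgeR adjusted p = 0.0262), but that call was lost without water replicate 3 (0.0625) or without regressing replicate 1, 2 or 3 (0.127, 0.139 and 0.0781). Gabrb2, a beta subunit that joins alpha subunits in the brain receptor, was sparse and reached at most 0.555 CPM, in progressing replicate 1. Gabre was 11.3, 0.0764 and 7.9 CPM in water and 8.63, 18.0 and 9.34 CPM in progressing tumours and was not called, so the low level in water replicate 2 was shared with Gabra4 but the low level in progressing tumours was not.

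Kremen1 ran opposite to Kremen2. It was 24.1, 28.0 and 27.2 CPM in water tumours, 190.0, 435 and 228 CPM in progressing and 222, 237 and 120.0 CPM in regressing tumours. Kremen1 rose by 3.43 ± 0.41 log2 units in progressing tumours (SE, edgeR adjusted p = 0.00172) and by 2.87 ± 0.40 in regressing tumours (SE, edgeR adjusted p = 0.00685), and both calls held without any 1 library. It did not differ between the outcomes beyond the spread of replicates (log2 fold change -0.56 ± 0.38, SE, edgeR adjusted p = 0.325), a comparison in which 6.18% of all genes were called lower and 6.45% higher. On the FPKM scale Kremen2 made up 74.3%, 72.2% and 47.1% of both genes in the water tumours, at most 0.131% in the progressing and 0.848% to 7.74% in the regressing tumours.

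**Figure D2:**
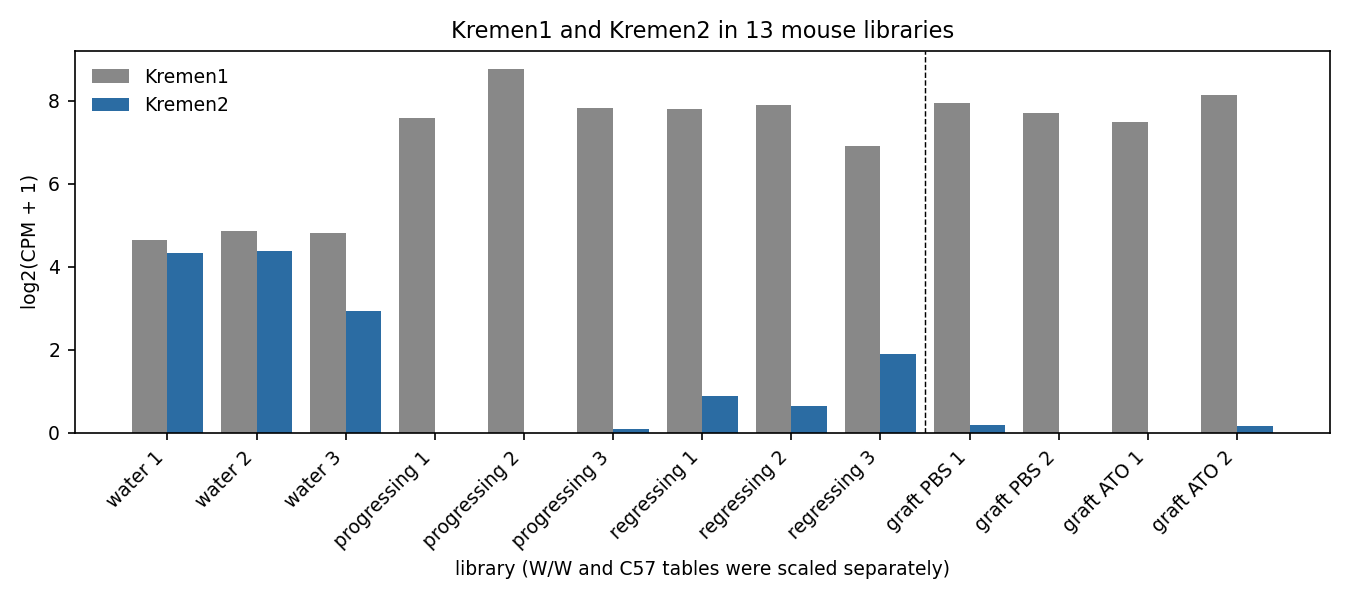
Levels as log2(CPM + 1) (vertical axis) of Kremen1 (grey) and Kremen2 (blue) in each of the 13 mouse libraries, with the W/W table left and the C57 table right of the dashed line. Kremen1 is at 24.1 to 28.0 CPM in the water tumours and at 120.0 to 435 CPM in all other libraries, where Kremen2 is at or below 2.77 CPM.

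Among the other receptors of this pathway, 15 of 18 genes were tested. Higher calls numbered 2 in regressing and 3 in progressing tumours against water, with none lower (background 3.13% and 4.77% of genes higher). Lrp5, the co-receptor that Dickkopf and Kremen proteins act on, was 7.09, 13.2 and 11.7 CPM in water, 40.6, 66.3 and 105 CPM in progressing and 31.4, 28.5 and 29.5 CPM in regressing tumours. It rose by 2.73 ± 0.42 in progressing tumours (SE, edgeR adjusted p = 0.00465), a call kept without any 1 library, and by 1.48 ± 0.40 in regressing tumours (SE, edgeR adjusted p = 0.0485), a call lost in all 6 such fits (adjusted p 0.0575 to 0.165). Its relative Lrp6 was 63.8 to 76.7 CPM in water and 77.1 to 114 CPM in the ATO groups and was not called. Dkk1, the best known ligand, reached at most 0.803 CPM. Of 12 tested Wnt feedback targets, 1 was called lower in regressing tumours and 1 lower and 1 higher in progressing tumours, where 4.57% and 7.13% of all genes were called lower. The lower gene was Myc both times, at 200, 996 and 171 CPM in water, 70.9, 87.8 and 35.3 in progressing and 32.9, 36.8 and 64.6 in regressing tumours (log2 fold changes -2.82 ± 0.68 in progressing and -3.35 ± 0.70 in regressing, SE, edgeR adjusted p = 0.0262 and 0.0228). The call for Myc was lost without progressing replicate 1, 2 or 3 (adjusted p = 0.0661, 0.0526 and 0.0948) and without regressing replicate 1, 2 or 3 (0.111, 0.124 and 0.0515).

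Of 19 other genes of the KLHL family, 16 were tested. None was called in regressing against water tumours by edgeR, with 4 at an unadjusted p under 0.05 and 3 called by DESeq2. In progressing against water tumours 1 of the 16 was called higher, as were 4.77% of all genes. It was Klhl12, a further adaptor of CUL3, at 44.3, 60.8 and 63.1 CPM against 22.6, 27.0 and 20.1 CPM (log2 fold change 1.27 ± 0.30, SE, edgeR adjusted p = 0.0225). The call for Klhl12 was lost without water replicate 1 or 3 or progressing replicate 3 (adjusted p = 0.0666, 0.0757 and 0.0726). The median log2 fold change of the 16 genes was 0.24 in regressing and -0.0836 in progressing tumours, against -0.115 and -0.0378 over all genes tested.

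Genes beside and over the 6 genes were compared next. Paqr4, a membrane receptor gene 330 bases from Kremen2 on the same strand, was 17.6, 23.2 and 14.3 CPM in water, 2.77, 3.13 and 0.735 CPM in progressing and 2.97, 4.52 and 4.75 CPM in regressing tumours. It fell in progressing tumours by 3.05 ± 0.62 log2 units (SE, edgeR adjusted p = 0.0133) and gave -2.17 ± 0.60 in regressing tumours (SE, edgeR adjusted p = 0.0511). Flywch1, 6960 bases away on the other side, was 29.9, 22.6 and 19.0 CPM in water and 15.2, 9.38 and 13.5 CPM in progressing tumours. In regressing tumours it was 17.1, 16.3 and 20.7 CPM. It was not called (edgeR adjusted p = 0.508 in regressing and 0.139 in progressing tumours). Paqr4 thus shared with Kremen2 the order of water against ATO tumours, with a smaller range. Flywch1 also had all water libraries above all progressing ones, but its water and regressing libraries overlapped.

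The gene 4930426D05Rik overlaps Klhl14 on the opposite strand. It had 115, 400 and 15 counts in water, 1, 2 and 0 in progressing and 10, 6 and 8 in regressing tumours, the same order of libraries in water as Klhl14. It fell by 4.61 ± 1.17 log2 units in regressing and by 7.30 ± 1.40 in progressing tumours (SE, edgeR adjusted p = 0.0407 and 0.0109). The gene 9530082P21Rik overlaps Kremen2 on the opposite strand and had 121, 14 and 70 counts in water, 8, 1 and 8 in progressing and 66, 36 and 85 in regressing tumours. It was low in water replicate 2, where Kremen2 was high. Between groups it was lower in progressing than in water tumours (log2 fold change -3.45 ± 0.91, SE, edgeR adjusted p = 0.0351) and higher in regressing than in progressing tumours (3.34 ± 0.91, SE, edgeR adjusted p = 0.039), and in both it had the direction of Kremen2. Regressing and water tumours did not differ in 9530082P21Rik beyond the spread (-0.111 ± 0.804, SE, edgeR adjusted p = 0.941), whereas Kremen2 was lower in regressing tumours. Gabrb1 overlaps Gabra4 on the opposite strand and stayed at 0.742 to 2.16 CPM in all 9 libraries. Whether reads were assigned by strand is not given in the sources used here, so reads of Klhl14, Kremen2 or Gabra4 and of the gene on their opposite strand cannot be told apart. How reads that map to several places were treated is not given either, and Pou5f1 has pseudogenes with which it may share reads. Zic5 and Kcnf1 overlapped no other gene, and the gene over Pou5f1 had 0 counts.

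The nearest genes of the others with a mean of at least 1 CPM were not called in the comparisons with water. Clybl and Pcca flank Zic5 at 54561 and 68647 bases, and neither was called in any W/W comparison (edgeR adjusted p 0.365 to 0.968). Pqlc3 and Pdia6 flank Kcnf1 at 171692 and 89657 bases, and Gnpda2 and Commd8 flank Gabra4 at 1977409 and 498267 bases. H2-Q10 and Tcf19 flank Pou5f1 at 31455 and 1962 bases, and none of these flanking genes was called. Pdia6, a protein folding enzyme, was 312, 293 and 273 CPM in water and 130.0 to 243 CPM in the ATO groups, without overlap (edgeR adjusted p = 0.0729 in regressing tumours). Tcf19 was 74.7 to 88.1 CPM in water and 26.8 to 59.0 CPM in the ATO groups (edgeR adjusted p = 0.145 in regressing and 0.127 in progressing tumours). Rnf138 and Dtna lie 522153 and 1760417 bases from Klhl14. Rnf138 was not called, and Dtna had 143 CPM in progressing replicate 1 and at most 1.24 CPM in the other 8 libraries.

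For each of the 6 genes, the 3 named genes with the most alike pattern were found by Pearson's r of log2(CPM + 1) over the 9 W/W libraries. The libraries fall into groups and share depth and scaling, so r is only a description. The genes most like Zic5 included Dnmt3b (r = 0.971), a de novo DNA methyltransferase, and Dhx33 (0.967), an RNA helicase. Dnmt3b was 25.5, 15.9 and 20.1 CPM in water, 6.97, 21.2 and 9.26 in progressing and 6.81, 7.48 and 6.73 CPM in regressing tumours, with progressing replicate 2 at the level of the water tumours. The genes most like Kcnf1 were Lcn4 (0.949), Cpxm1 (0.943) and Taf1d (0.942), a factor of RNA polymerase I. Cpxm1 was 87.6, 8.93 and 88.3 CPM in water and 75.3 CPM in progressing replicate 2.

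Gabra4 was matched by Fbxo41 (0.982), Shisa3 (0.979) and Hs6st2 (0.979), a heparan sulfate sulfotransferase. All 3 were high in water replicates 1 and 3 and low in replicate 2: Fbxo41 was 15.8, 0.0764 and 15.7 CPM. Pou5f1 was matched by Rom1 (0.985), Rps23-ps1 (0.981) and Galnt14 (0.972), each highest in water replicate 2, where Rom1 reached 46.9 CPM against 3.53 to 8.71 CPM elsewhere. Rps23-ps1 is a pseudogene and may share reads with its parent gene.

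Klhl14 was matched by Susd3 (0.985), Clec2g (0.981) and Ifngas1 (0.975), which peaked in the same library at 40.9, 18.9 and 34.4 CPM. Kremen2 was matched by Myo1e (0.985), a motor protein, Nxpe1-ps (0.975) and Ccdc102a (0.974). Myo1e was 90.9, 107 and 61.2 CPM in water, 13.9, 12.8 and 9.48 in progressing and 15.8, 15.0 and 24.7 CPM in regressing tumours. These names depend on the measure: with a pseudocount of 0.1, or with Spearman's rho, 2 of the 18 genes were again among the first 3.

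**Figure D3:**
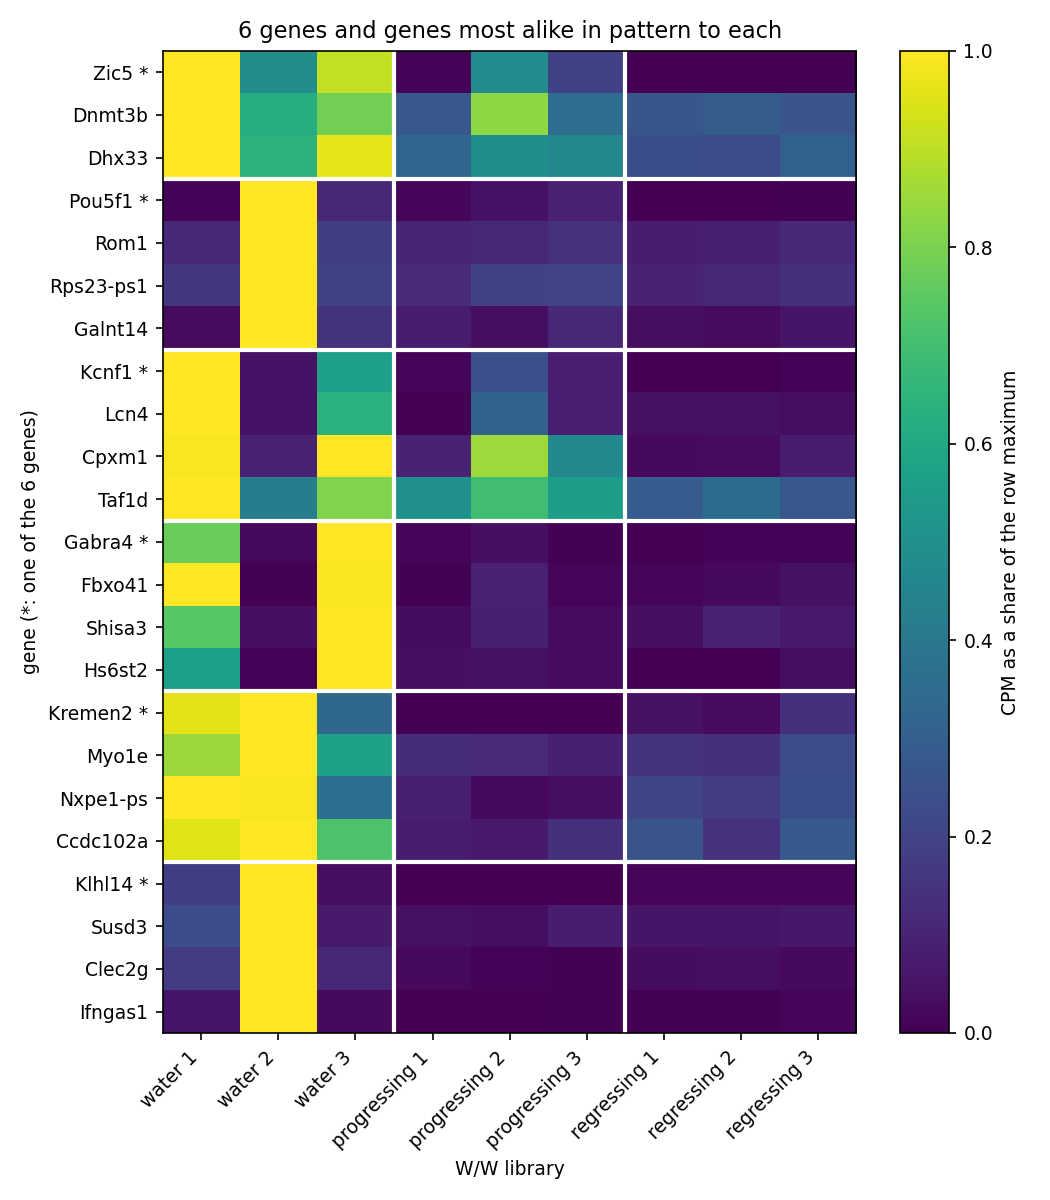
Heat map of CPM as a share of the row's highest library (colour) for the 6 genes (starred) and genes most alike to each, in the 9 W/W libraries (columns). Blocks for Pou5f1 and Klhl14 peak in water replicate 2, blocks for Kcnf1 and Gabra4 in water replicates 1 and 3, and the Kremen2 block in water replicates 1 and 2.

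Markers of other cell types also differed between the libraries. Summed over 16 B cell markers, the level was 2300.0, 4490.0 and 414 CPM in water, 22.1, 92.1 and 111 CPM in progressing and 294, 198 and 295 CPM in regressing tumours. Between 11 and 16 of them had more than 3 counts in a W/W library. Cd79a, a B cell receptor subunit, was 318, 1130.0 and 11.5 CPM in water, 1.23, 9.72 and 3.6 in progressing and 27.6, 27.2 and 49.2 CPM in regressing tumours. The water libraries thus had the same order in the summed B cell level as in Klhl14, and both were lowest in progressing tumours. Most of the 16 markers had this order in water, but Cr2, Fcer2a, Blk and Fcmr did not. In water replicate 2, Cr2 was 0.0764 CPM and Fcer2a 0.153 CPM, against 108 and 219 CPM in water replicate 1. Most of the sum in progressing replicate 3 was Fcrla, at 75.3 CPM. Of the 16 markers, 12 were called lower in progressing against water (7.13% of all genes were) and 3 in regressing against water (4.57% of all genes). The 3, Vpreb3, Spib and Ms4a1, did not pass with the replicate block (edgeR adjusted p = 0.129, 0.0536 and 0.132) or without water replicate 2 (0.212, 0.0821 and 0.131), while DESeq2 called 11 of the 16. The part of B cell content in the Klhl14 and Kremen2 values was not tested.

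Medullary thymic epithelial cells express many genes of other tissues under the regulator AIRE, so their markers are given beside Gabra4 and Kcnf1. Aire was 46.9, 1.76 and 139 CPM in water, 2.28, 5.66 and 0.221 in progressing and 19.1, 9.32 and 17.3 CPM in regressing tumours. In the water group it was low in replicate 2, as were Gabra4 and Kcnf1. In regressing tumours Aire was above its level in water replicate 2, and Gabra4 was at 0.0619 to 0.282 CPM there. Foxn1, the master factor of thymic epithelium, was 1.74, 0.611 and 16.4 CPM in water and 9.69 to 14.2 CPM in regressing tumours. Fezf2, another regulator of medullary epithelium, was 6.06, 1.37 and 42.6 CPM in water, at most 1.27 in progressing and 3.39 to 7.65 CPM in regressing tumours. Krt5, a keratin of medullary epithelium, was 35.6, 83.1 and 437 CPM in water, 2.06 to 9.38 in progressing and 51.2 to 128 CPM in regressing tumours. The summed level of 14 thymic epithelial markers was 317, 340.0 and 1170.0 CPM in water, 121 to 167 CPM in progressing and 1700.0 to 1900.0 CPM in regressing tumours. The regressing sums were mostly Prss16 (685 to 894 CPM) and Ccl25 (325 to 358 CPM), genes of cortical epithelium. The part of epithelial content in the values of the 6 genes was not tested.

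**Figure D4:**
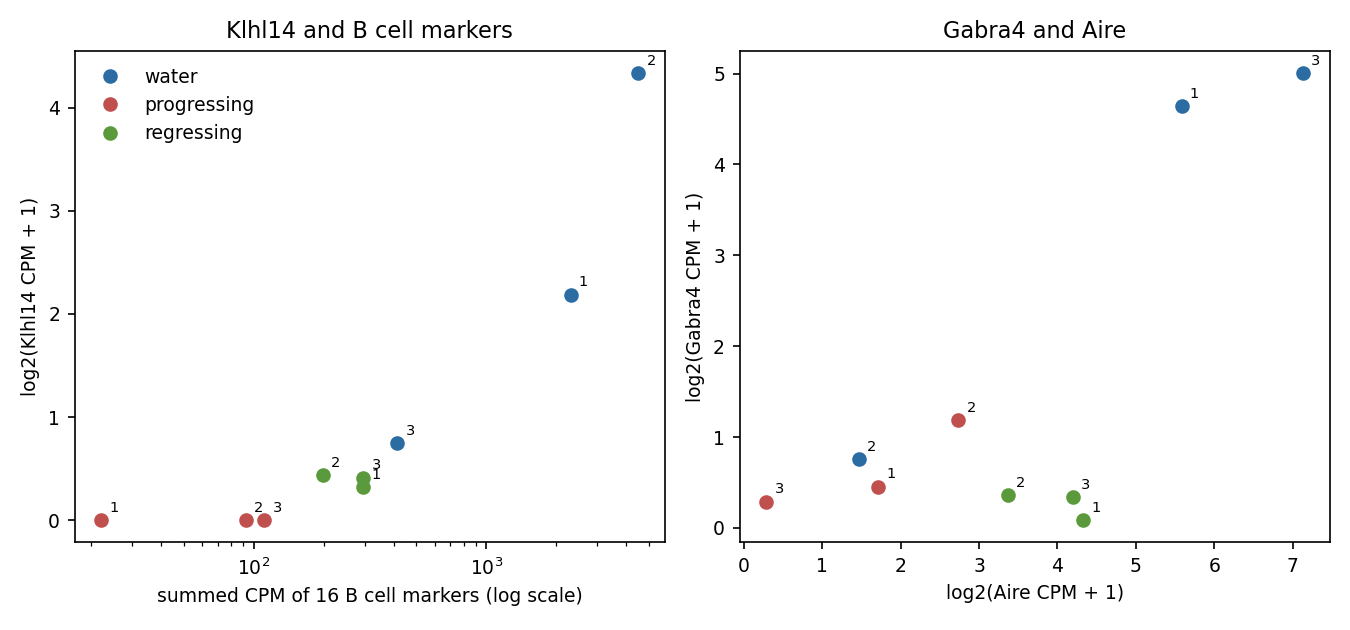
Left, log2(Klhl14 CPM + 1) against the summed CPM of 16 B cell markers on a log axis. Right, log2(Gabra4 CPM + 1) against log2(Aire CPM + 1). Points are the 9 W/W libraries with replicate numbers. Klhl14 is highest where the B cell sum is highest (water replicate 2, 4490.0 CPM), and regressing libraries with Aire at 9.32 to 19.1 CPM have little Gabra4.

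T cell markers differed as well. Of 16 tested, 9 were called higher and 0 lower in regressing against water, where 3.13% and 4.57% of all genes were. In progressing against water 6 were called higher and 2, Cd5 and Cd2, were called lower, where 4.77% and 7.13% of all genes were. Rag1, which cuts antigen receptor genes in developing thymocytes, was 2.13, 2.29 and 0.617 CPM in water, 591, 258 and 1390.0 in progressing and 3300.0, 3390.0 and 1510.0 CPM in regressing tumours. It rose by 8.80 ± 0.89 in progressing and by 10.67 ± 0.95 in regressing tumours, in log2 units (SE, edgeR adjusted p = 0.00107 and 0.00135), and both calls held without any 1 library. Neural markers were listed because Zic5 and Gabra4 are genes of neural cells, and 14 of them summed to 97.0, 119 and 148 CPM in water and to 127 to 207 CPM in the ATO groups, of which the myelin gene Mbp gave 64.6 to 72.8 CPM in water and 81.4 to 115 CPM in the ATO groups. A list of 15 genes of neuroectoderm and neural plate, with 4 ZIC genes among them, summed to 70.7, 25.3 and 84.8 CPM in water, 6.6, 39.1 and 4.85 in progressing and 14.8, 9.18 and 21.8 CPM in regressing tumours. Most of the water sums came from Nes, an intermediate filament gene of progenitor cells, at 67.3, 17.2 and 67.4 CPM, which was not called (edgeR adjusted p = 0.0681 in regressing and 0.2 in progressing tumours). Their part in the values of the 6 genes was not tested.

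The grafted tumours were not used to choose the genes. None of the 6 passed the filter on low counts there, so the test over the 15468 genes that passed it, of which 13.9% were called, did not include them. Zic5 had 7 and 8 counts in PBS grafts and 3 and 1 in ATO grafts (0.510, 0.537, 0.221 and 0.0658 CPM). The PBS grafts were above the ATO grafts, but without the filter the log2 fold change of Zic5 was -1.88 ± 1.18 (SE, edgeR adjusted p = 0.371), which missed the threshold. Pou5f1 had 0, 1, 1 and 3 counts, Kcnf1 0, 1, 1 and 4, Gabra4 0, 0, 0 and 1, and Kremen2 2, 0, 0 and 2, in the order of PBS 1, PBS 2, ATO 1 and ATO 2. Without the filter their edgeR adjusted p-values ranged from 0.627 to 0.996. None of the 5 genes that could be fitted reached an unadjusted p under 0.05, with edgeR or with DESeq2. Klhl14 had no count in the 4 grafts.

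Apart from Zic5 in the PBS grafts, these counts are at or near 3 per library, so no fold is given for the other 5 genes and a difference was not detectable at this depth. The grafts expressed T cell genes (Cd3e at 488 to 698 CPM), with Cd79a at or below 1.03 CPM and Aire at or below 0.0738 CPM. Kremen1 was 244, 207, 180.0 and 282 CPM, without a difference beyond the spread (log2 fold change 0.03 ± 0.24, SE, edgeR adjusted p = 0.941). The tables were scaled separately, so levels across them are only side by side. Of the GABA receptor list, 1 subunit of 4 tested rose in ATO grafts, where 7.37% of all genes were called higher: Gabre, at 6.12 and 6.38 CPM against 0.364 and 0.94 CPM (log2 fold change 3.23 ± 0.56, SE, edgeR adjusted p = 0.00876), a call kept without any 1 library. Of 15 KLHL genes tested in grafts, Klhl13 rose (0.146 and 0.336 CPM against 1.18 and 2.56 CPM, edgeR adjusted p = 0.0278) and Klhl8 fell (22.1 and 24.2 CPM against 12.4 and 10.7 CPM, edgeR adjusted p = 0.0446), where 7.37% of all genes were called higher and 6.57% lower. Both calls were lost in 3 of the 4 fits without 1 library and with the replicate block (adjusted p = 0.0522 and 0.0792). Without PBS replicate 1 or 2 or ATO replicate 2 the adjusted p was 0.192, 0.0619 and 0.197 for Klhl13 and 0.142, 0.147 and 0.0757 for Klhl8.

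In U937 cells KREMEN2 had 282 counts with PBS and 89 with ATO, or 15.8 and 5.41 CPM of the plain library total. The ratio of ATO to PBS was 0.343 with an exact 95% interval of 0.267 to 0.437, which covers counting error only and compares 2 libraries, not conditions. POU5F1 had 21 and 24 counts, a ratio of 1.24 with an interval of 0.662 to 2.34. ZIC5, KCNF1, GABRA4 and KLHL14 had 0 counts in both libraries, which allows up to 0.168 CPM with PBS and 0.182 CPM with ATO. Of the 6 genes, KREMEN2 and POU5F1 were thus the ones detected in this myeloid line.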

How the data were processed

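RNA was extracted with TRIzol and made into libraries with a SMARTer kit, per the labels' protocols. The submitters' processing notes name FastQC 0.10.1, cutadapt 1.9.1, HISAT2 2.0.1 and GRCm38. The counter, its use of strand and its handling of multiply mapped reads are not given in the sources used here. The authors deposited whole read counts per gene and FPKM values in 1 table for each of the W/W, C57 and U937 samples. Counts were used for all tests, and the deposited FPKM only to set genes beside each other per length.

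Genes were filtered with filterByExpr, scaled by TMM and tested with edgeR 4.0.16 (quasi-likelihood, R 4.3.3) over 9 W/W libraries in 3 groups, or over 4 graft libraries. P-values were adjusted by Benjamini-Hochberg over all genes tested, with calls at 0.05. The SE of a log2 fold change is its absolute value divided by the square root of the quasi-likelihood F statistic. It is thus approximate, most of all where a group is near 0 counts. A floor of 3 counts per library sets the lower bounds of folds, and intervals and floors cover counting error only. Only the edgeR step was tested on simulated counts with known fold changes.

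The 6 genes and the gene lists were chosen with earlier results of these data known. Beside the 6, the text names the 3 genes with the highest r for each (mean of at least 1 CPM), the nearest gene on each side, genes over them, and listed genes that were called or define a family. Further listed genes were named after their values were seen. Alternatives were RLE scaling, DESeq2 1.42.0, no filter, a replicate block, only the compared groups, each library left out, a pseudocount of 0.1 and Spearman's rho. Promoter sequences and start sites are from RefSeq (GRCm38.p6). The build of the C57 table is not stated, and its coordinates were not used. A few genes that these rules name are not reported here.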

Additional observations from a re-analysis of the deposited data

Results flagged for a closer look

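In the lists around the 6 genes, 5 genes differed between regressing and progressing tumours by the test of that difference, in which 12.6% of all genes were called. They were 1 of 15 tested Kremen, Dickkopf and Wnt receptor genes, 1 of 12 Wnt feedback targets, 2 of 16 KLHL genes and 1 of 11 pluripotency genes. None of the 4 potassium channel genes and 7 GABA receptor genes tested was called. In no list was the share of tested genes called above 12.6%. Fzd5, a Wnt receptor, was lower in regressing tumours (8.79, 9.6 and 8.05 CPM) than in progressing ones (24.1, 33.6 and 43.2 CPM), a difference of -1.93 ± 0.44 log2 units (SE, edgeR adjusted p = 0.0247). Nkd1, a Wnt feedback inhibitor, gave -5.26 ± 1.26 (edgeR adjusted p = 0.0276) on 64.3, 1.27 and 28.9 CPM in progressing against 0.681 to 1.06 CPM in regressing tumours. Klhl12 gave -1.07 ± 0.29 (edgeR adjusted p = 0.0408). Klhl29 was higher in regressing tumours (11.5, 11.6 and 8.11 CPM against 0.493, 2.11 and 1.18 CPM), with 3.05 ± 0.67 (edgeR adjusted p = 0.0212). Tfcp2l1, a transcription factor of the naive pluripotent state, gave 3.68 ± 1.03 (edgeR adjusted p = 0.0425), at 12.7 to 14.9 CPM in regressing and 0.147 to 1.78 CPM in progressing tumours. Of the 6 fits without 1 library, the call held in 2 for Fzd5, 1 for Nkd1, 1 for Klhl12, 3 for Klhl29 and 0 for Tfcp2l1.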

How the results depend on the processing

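Genes called in regressing against water numbered 1396, with 3144 by DESeq2, 2689 without the filter and 60 to 1190 without 1 library. In progressing against water there were 2157, with 3859 by DESeq2, 3594 without the filter, 882 with only the compared groups and 907 to 2557 without 1 library. In regressing against progressing there were 2289, with 4100 by DESeq2, 3621 without the filter and 177 to 2000 without 1 library. In grafts there were 2157, with 3274 without the filter and 685 to 2420 without 1 library, where the lone sample left in a group is assumed to vary like the others. RLE scaling kept each of these counts within 1.5 times. With the replicate number as a block the counts were 956, 1405, 1597 and 1350. Same-numbered W/W libraries did not pair (r of their deviations -0.124 to 0.153). In grafts r was -0.117, and the crossed block, chosen after seeing the data, gave 3298. The block moved the edgeR adjusted p of Utf1 to 0.0696 in progressing and of Lrp5 to 0.0526 in regressing against water. Of the fitted log2 fold changes of the 6 genes, 167 settings stayed within their spread, 24 moved beyond it and 0 changed sign. The genes were chosen on these values, so the kept signs against water follow largely from the choice. The spread is that between replicates, which is wide for several of these genes. Of the 18 most alike genes, 2 were again found with a pseudocount of 0.1 and 2 with Spearman's rho. The cause of these changes was not tested. Counts near 3 per library limit what the grafts can show.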

Other observations

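Of 7 germ cell genes and 12 neural genes tested, 2 of each were called higher in progressing against water tumours, as were 4.77% of all genes. Dazl, an RNA-binding protein of germ cells, was 30.4, 26.6 and 30.0 CPM there, 0.129 to 0.305 CPM in water and 0.124 to 0.212 CPM in regressing tumours. It rose by 7.09 ± 0.59 on the log2 scale in progressing against water (SE, edgeR adjusted p = 0.000549), and the call held without any 1 library. Stra8, which acts at entry into meiosis, was 10.2, 10.2 and 18.0 CPM in progressing and 0.258 to 1.3 CPM in water tumours (4.13 ± 0.72, edgeR adjusted p = 0.0077). Rbfox3, a splicing factor of neurons, was 2.59, 17.3 and 6.84 CPM in progressing and 0.258 to 0.458 CPM in water tumours (4.68 ± 0.90, edgeR adjusted p = 0.0112). Trim71, a gene of early development, had 54.5 CPM in progressing replicate 2 and at most 0.809 CPM in the other 8 W/W libraries.

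Of 27 Polycomb genes tested, 2 were called lower (Phf19 and Rbbp7) and 0 higher in regressing against water, where 4.57% of all genes were called lower. In progressing against water 2 were called higher (Bmi1 and Pcgf3) and 2 lower (Ezh1 and Rbbp7), where 4.77% of all genes were called higher and 7.13% lower. Each of these calls was lost in some fit without 1 library, where the adjusted p reached 0.189 for Phf19 and 0.143 for Rbbp7 in regressing, and 0.143 for Bmi1, 0.107 for Pcgf3, 0.159 for Ezh1 and 0.109 for Rbbp7 in progressing tumours. With the replicate block none passed except Rbbp7 in regressing tumours (0.0663 for Phf19, 0.0578 for Bmi1, 0.0514 for Pcgf3, 0.0797 for Ezh1 and 0.0529 for Rbbp7 in progressing). The median log2 fold changes of the list were 0.243 and 0.00375, against -0.115 and -0.0378 over all genes. Of 10 genes of DNA methylation, Mbd1 was called higher in regressing (3.13% of all genes were) and Tet1 higher in progressing tumours (4.77% of all genes) against water, and without 1 library the adjusted p reached 0.153 for Mbd1 and 0.112 for Tet1.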
